A study of Homo sapiens with 3 samples.

Results

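The 5 genes described here are MITF, TFEB, TFE3 and TFEC, which make up the MiT/TFE family of transcription factors, and SFPQ, also called PSF, the gene that is joined to TFE3 in the fusion under study. Their loci were chosen by position, as windows on hg19 that hold each gene and about 10 kb on either side. The rule uses no summit or score, but the genes were picked with earlier results of these data known. The windows were chr3:69779001-70027000 for MITF, chr6:41642001-41714000 for TFEB, chrX:48876001-48911000 for TFE3, chr7:115565001-115681000 for TFEC and chr1:35639001-35669000 for SFPQ, 501 kb in all. They held 12 of the 44983 summits listed for replicate 8 and 4 of the 28084 listed for replicate 9.

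HA-PSF-TFE3 was induced with 0.2 µg/ml doxycycline for 24 h in HK-2 cells, an established human line of proximal tubule epithelium, and its binding was mapped by chromatin immunoprecipitation with an HA antibody and sequencing (ChIP-seq). The 2 ChIP libraries are named replicates 8 and 9 after their labels. Per the study's text, each came from a clone of its own, so clone and library cannot be told apart. All libraries were treated with doxycycline, including 1 input DNA library against which peaks were called, and its signal was not used here. A summit is the base of highest enrichment in a peak, and its score is the −log10 q-value given by the authors' peak caller. The series' design text names PRCC-TFE3 where its title and sample labels name PSF-TFE3, and the labels were followed.

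MiT/TFE proteins are basic helix-loop-helix leucine zipper factors that bind, as dimers within the family, to E-box sequences such as CACGTG. TFEB and TFE3 switch on genes of lysosomes and autophagy and are held in the cytoplasm when mTORC1 phosphorylates them, MITF directs the melanocyte lineage, and TFEC is the family member least studied. Members of the family can be targets of one another, and a TFE3 fusion keeps the DNA-binding part of TFE3 while its other partner, here SFPQ, is a nuclear RNA-binding protein of paraspeckles. The comparison asked whether the induced fusion was detected at the genes of its own family and of its own fusion partners, and whether both libraries listed the same sites.

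The TFEB window was the only one of the 5 with summits in both libraries. It held 6 in replicate 8 and 4 in replicate 9. MITF held 3 summits, TFEC 2 and TFE3 1, all in replicate 8, and replicate 9 listed none in these 3 windows. The SFPQ window held no summit in either library. All 16 summits lay inside the gene intervals that remain when the 10 kb flanks are taken off, and none lay in a flank. The mean over both libraries was 8 ± 5.66 summits (SD, n = 2).

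**Figure D1:**
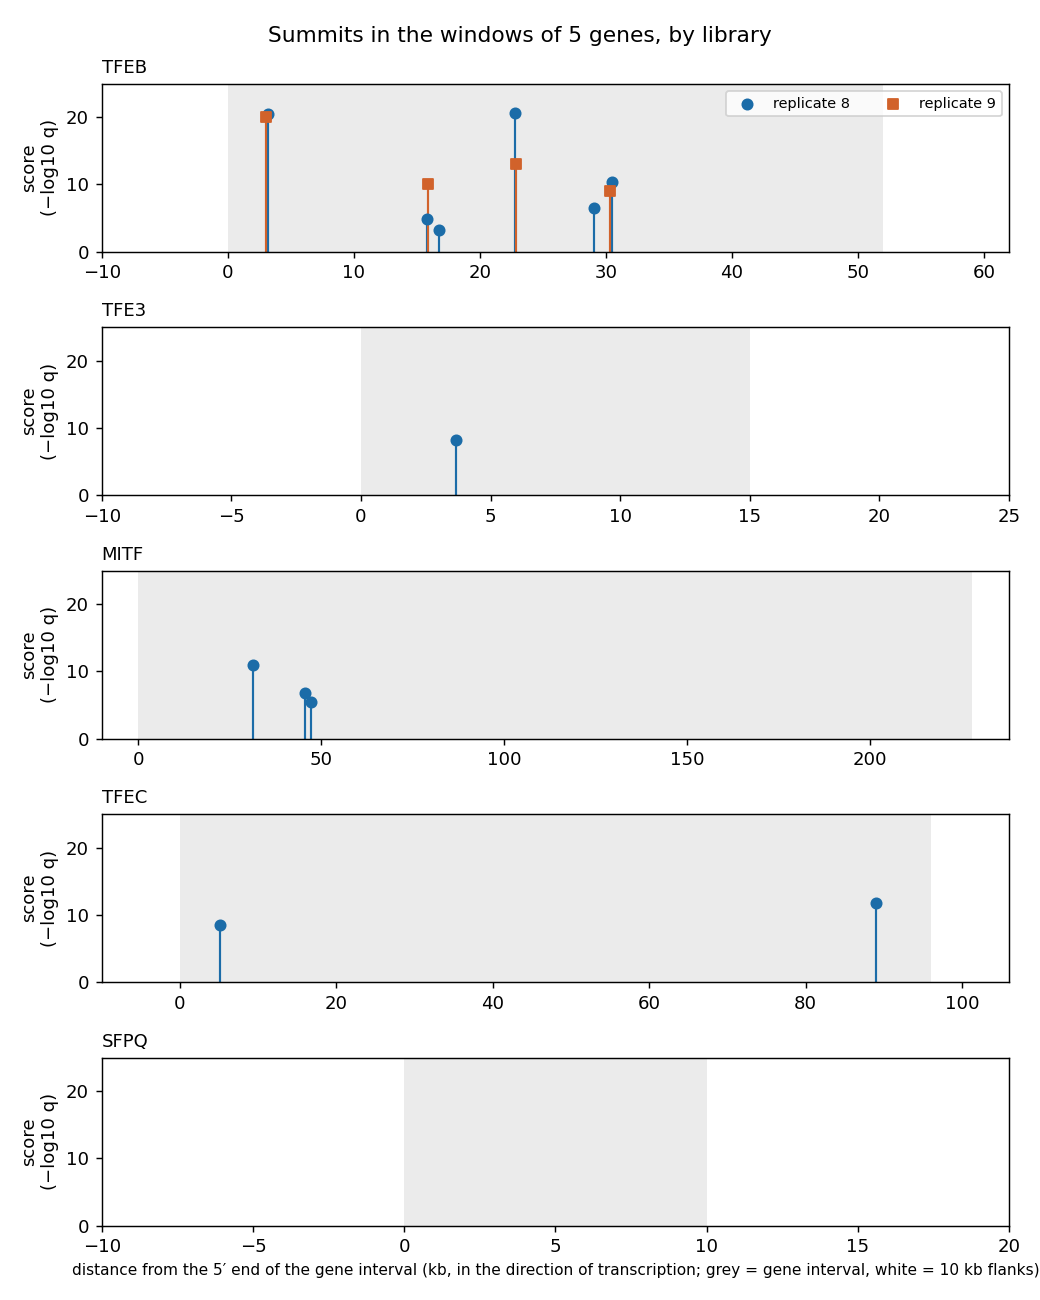
Score of each summit (−log10 q, vertical axis) against its distance in kb from the 5′ end of the gene interval, in the direction of transcription, for replicates 8 and 9. TFEB carries 6 and 4 summits, of which 4 of each library stand within 500 bp of one in the other, MITF, TFEC and TFE3 carry 3, 2 and 1 in replicate 8 alone, and SFPQ carries none.

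TFEB encodes a master regulator of lysosome formation, and 4 places in its window were listed in both libraries. The one nearest the 5′ end of the interval lay 3.18 kb inside it in replicate 8, at position 41700821 on chromosome 6, with a score of 20.5, and at 41700931 in replicate 9, with a score of 20.0. These were 110 bp apart. Theirs was the highest score of the 5 windows in replicate 9 and the second highest in replicate 8. The next place, 22.8 kb inside, lay at 41681158 with a score of 20.6 in replicate 8 and at 41681096 with 13.1 in replicate 9, a distance of 62 bp.

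The other two places of TFEB had lower scores. At 15.8 kb inside the interval, replicate 8 had a summit at 41688232 with a score of 4.86 and replicate 9 one at 41688080 with 10, 152 bp apart. At 30.5 kb, replicate 8 had a summit at 41673457 with a score of 10.4 and replicate 9 one at 41673661 with 9.03. That pair was 204 bp apart and so fell just outside the 200 bp used to call a summit shared. The 4 places were therefore 3 shared summits within 200 bp and 4 within 500 bp, and none within 50 bp.

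Replicate 8 listed 2 further TFEB summits without a partner of their own. One, at 41674872 with a score of 6.43, lay 1.21 kb from the nearest replicate 9 summit, and the other, at 41687179 with a score of 3.28, lay 0.901 kb from one. Both scored below the middle of their own list, at ranks 26946 and 40536 of 44983.

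Within each list the TFEB summits ran from weak to fairly strong, from the 9.42 to the 83.4 percentile in replicate 8. The paired summits stood at the 83.3, 83.4, 27.1 and 59.9 percentiles of the replicate 8 scores and at the 72.6, 58.6, 48.4 and 44 percentiles of the replicate 9 scores, in the order in which they are given above. The site at 15.8 kb was the only one of the 4 with the higher percentile in replicate 9. Over all summits of the 5 windows the median percentile was 51.0 in replicate 8 and 53.5 in replicate 9, close to the middle of either list.

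**Figure D2:**
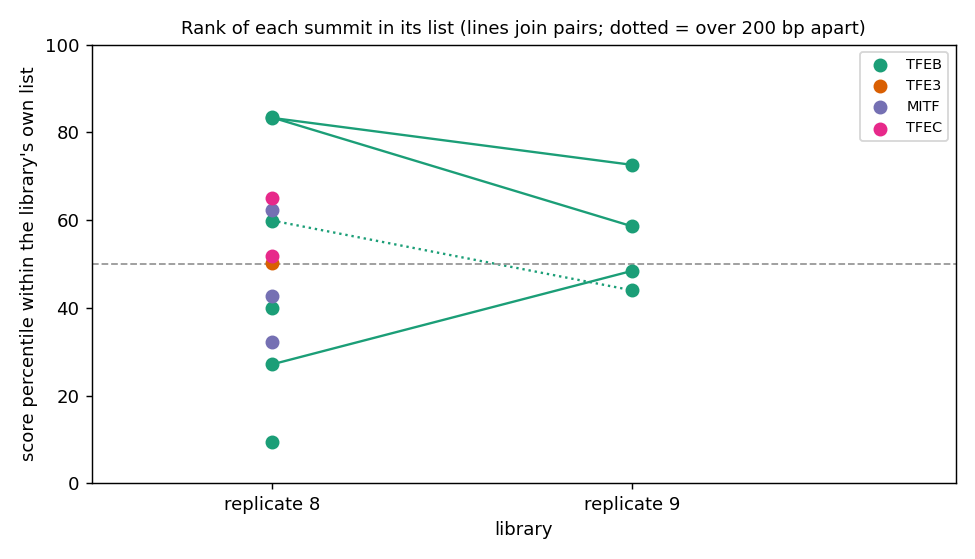
Percentile of each summit's score within its own library's list, for replicates 8 and 9, coloured by gene, with lines joining TFEB summits found in both (dotted for the pair 204 bp apart) and a dashed line at the middle of the lists. The TFEB summits spread from the 9.42 to the 83.4 percentile in replicate 8 and from 44 to 72.6 in replicate 9, and those of MITF, TFEC and TFE3 lie between 32.3 and 65.1.

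TFEB had the highest density of the 5 windows in both libraries. It held 83.3 summits per Mb in replicate 8 (exact 95% Poisson interval 30.6 to 181) and 55.6 in replicate 9 (15.1 to 142), compared with 15.2 and 9.46 per Mb over the whole lists, which is 5.50 and 5.87 times the density of each list. Counting the list over only the 100 kb bins that hold a summit lowered the ratio of all 5 windows from 1.58 to 0.804 and from 0.844 to 0.429. The TFEB ratios fall with this background by the same factor as those of all 5 windows, and were not computed for it. Each chromosome was divided into consecutive stretches of 72 kb without regard to genes. Of these, 58.0% held no replicate 8 summit and 66.5% held no replicate 9 summit. At least 6 replicate 8 summits were held by 3.97% of the stretches, and at least 4 replicate 9 summits by 4.48%. These shares describe where TFEB stands among stretches of its length, and since TFEB was picked out of 5 windows after its counts were seen, they are not a test. These intervals allow for counting error alone, since summits close to each other are not independent.

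MITF, the melanocyte regulator, had 3 summits in replicate 8 over its 248 kb window. The strongest, at position 69820399, scored 11.0 and lay 31.4 kb from the 5′ end of the interval. The other two stood close to each other, at 69834483 with a score of 6.85 and at 69836266 with 5.40, which is 45.5 and 47.3 kb from that end. No other replicate 8 summit lay within the 975 kb between the next summits on either side. The nearest replicate 9 summit, at 69766145 with a score of 10.5, lay 12.9 kb outside the window on its 5′ side and 54.3 kb from the closest of the 3. The density of 12.1 per Mb (Poisson interval 2.49 to 35.4) was 0.798 times that of the whole list, 44.3% of consecutive 248 kb stretches held at least 3 replicate 8 summits, and 37.8% held no replicate 9 summit. Neither count therefore stood apart from stretches of this length elsewhere.

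TFEC had 2 replicate 8 summits at opposite ends of its interval. The stronger, at 115581953 on chromosome 7 with a score of 11.8, lay 89.0 kb from the 5′ end, and the other, at 115665872 with a score of 8.47, lay 5.13 kb from it. The nearest replicate 9 summit was 292 kb from the latter, and the nearest other replicate 8 summit beyond the window was 170 kb past its 5′ edge. Of consecutive 116 kb stretches, 35.3% held at least 2 replicate 8 summits and 56.1% held none of replicate 9.

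TFE3, the gene whose product supplies the DNA-binding part of the fusion, had 1 replicate 8 summit at 48897351 on chromosome X with a score of 8.27, at the 50.2 percentile of its list and 3.65 kb inside the 5′ end. The nearest replicate 9 summit was 146 kb away. A stretch of 35 kb held at least 1 replicate 8 summit in 27.5% of cases and no replicate 9 summit in 79.5%.

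SFPQ had no summit in either library, and the stretch without a summit around it ran over 418 kb in replicate 8 and 583 kb in replicate 9. The nearest summit on its 5′ side lay 246 kb beyond the window in both libraries, at 35915199 with a score of 8.10 in replicate 8 and at 35915107 with 19.5 in replicate 9. An empty 30 kb stretch was common, at 75.2% of such stretches in replicate 8 and 81.6% in replicate 9, so that the absence of summits at SFPQ does not set it apart. The inducible construct carries SFPQ and TFE3 sequence, and reads from it can align to the exons of these 2 genes. Across both windows the lists held the 1 TFE3 summit in replicate 8, and the construct's part in it was not tested.

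**Figure D3:**
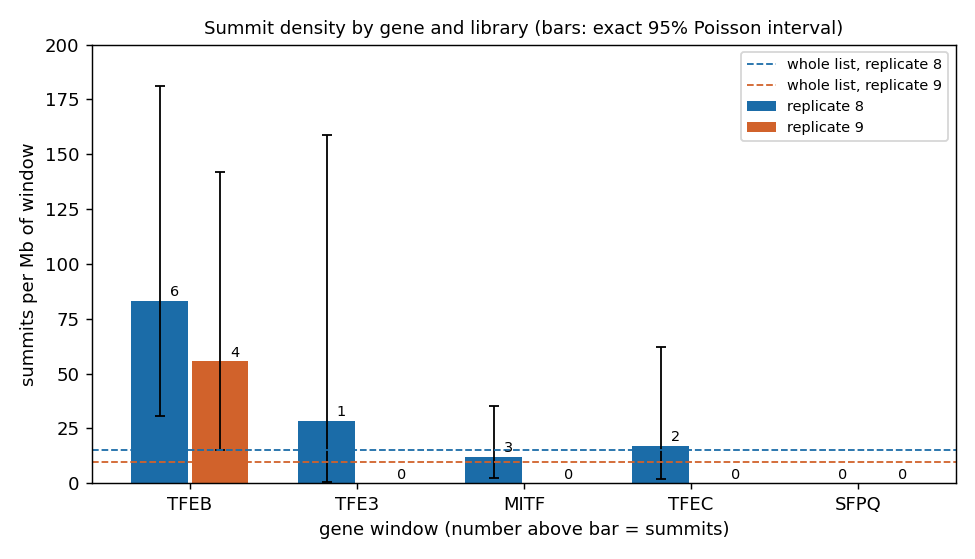
Summits per Mb of each gene window in replicates 8 and 9 (bars, with the number of summits above and exact 95% Poisson intervals as error bars), and the density of each whole list as dashed lines. The TFEB bars stand at 83.3 and 55.6, and the intervals of TFE3, TFEC and MITF in replicate 8 all span the dashed line at 15.2.

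In order of density, replicate 8 ranked TFEB, TFE3 (28.6 per Mb, Poisson interval 0.723 to 159), TFEC (17.2, interval 2.09 to 62.3), MITF and SFPQ. The intervals of neighbours in this order overlapped, and the TFEB interval overlapped those of the other 3 genes with summits, so the order among genes is not resolved by counts of this size. Over the 5 windows the density was 1.58 times that of the whole list in replicate 8 and 0.844 times in replicate 9. Neither direction held under every setting, since the ratio was 0.804 in replicate 8 when the whole list was counted over only the 100 kb bins that hold a summit, and 1.05 in replicate 9 when the flanks were left out. Without TFEB the other 4 windows, 429 kb in all, held 6 summits in replicate 8, at 0.923 times the density of the list, and 0 in replicate 9.

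The shared summits of both libraries were the same 3 TFEB pairs, counted over 12 summits in replicate 8 and 4 in replicate 9. Of the 12 replicate 8 summits in the windows, 3 had a replicate 9 summit within 200 bp (25%, 95% Wilson interval 8.89 to 53.2%), where 47.9% of the whole replicate 8 list did. Of the 4 replicate 9 summits, 3 had a replicate 8 summit within that distance (75%, interval 30.1 to 95.4%), where 76.6% of the whole list did. Both intervals hold the share of the whole list, but they treat summits as independent. Of the 12, 6 lay in the TFEB window, as did all 4 of replicate 9. Scores of 10 or more were held by 5 of the 12 and by 3 of the 4, and by 41.7% and 51.6% of the whole lists.

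The 6 replicate 8 summits of MITF, TFEC and TFE3 lay from 54.3 to 376 kb from any replicate 9 summit, and their scores ran from 5.40 to 11.8. Among all replicate 8 summits in the same score deciles, the share with a replicate 9 summit within 200 bp ran from 27.4% (the MITF summit scoring 5.40) to 64.8% (those scoring 11.0 and 11.8). Among replicate 8 summits as strong as the 2 highest at TFEB, this share was 86.8%. A site missing from the shorter replicate 9 list is one that did not pass the authors' threshold there. The mapped read totals in the study's text are similar for both libraries and slightly higher for replicate 8. The part of depth was not tested.

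The windows cover the genes unequally. In the RefSeq models at hand, which are on GRCh38 and were used for lengths, strands and names only, MITF spans 229 kb, TFEB 52.2 kb and TFE3 14.6 kb, close to the intervals of 228, 52 and 15 kb. TFEC spans 225 kb where its interval is 96 kb, and SFPQ 16.8 kb where its interval is 10 kb. Moving the edge of either window outward by the missing length, 129 kb for TFEC and 6.77 kb for SFPQ, added no summit in either library, on the 5′ or the 3′ side. The next coding gene beyond the 5′ end of TFEB is PGC, which encodes pepsinogen C and lies 0.488 kb away. No summit was listed in the 10 kb flank on that side.

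The promoters of the family were searched for CACGTG and for the general E-box CANNTG. The latter is wider than CA[C/T][G/A]TG, the form that the study's text gives for TFE3 binding. The promoters of TFEB are shown because it alone had summits in both libraries. RefSeq gives 3 starts for TFEB within 1.21 kb of each other, 3 for MITF, 2 for TFEC and 1 for TFE3 in the table used, 9 in all, and none for SFPQ. The sequence before each TFEB start is shown 5′ to 3′ on GRCh38.p14, minus strand, with matches to CANNTG, the general E-box, in capitals. The stretches are chr6:41735609-41735858, chr6:41735061-41735310 and chr6:41734402-41734651. The summits are on hg19 and were not placed on these sequences.
TFEB start 1: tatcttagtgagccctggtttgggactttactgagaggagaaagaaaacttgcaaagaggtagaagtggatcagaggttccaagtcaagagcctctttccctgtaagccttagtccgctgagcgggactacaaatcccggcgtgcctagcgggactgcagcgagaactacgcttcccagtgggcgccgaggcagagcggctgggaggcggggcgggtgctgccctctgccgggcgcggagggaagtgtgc
TFEB start 2: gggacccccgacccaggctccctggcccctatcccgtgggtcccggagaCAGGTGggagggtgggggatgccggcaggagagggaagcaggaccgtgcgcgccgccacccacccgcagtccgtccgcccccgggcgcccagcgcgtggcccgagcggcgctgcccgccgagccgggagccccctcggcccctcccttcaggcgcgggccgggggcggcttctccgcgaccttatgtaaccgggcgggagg
TFEB start 3: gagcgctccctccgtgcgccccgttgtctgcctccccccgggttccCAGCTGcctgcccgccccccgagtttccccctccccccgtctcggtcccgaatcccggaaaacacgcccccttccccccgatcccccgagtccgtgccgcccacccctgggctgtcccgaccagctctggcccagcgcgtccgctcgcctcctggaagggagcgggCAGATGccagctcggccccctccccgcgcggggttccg

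The first of these holds no CANNTG, the second holds 1 and the third holds 2. None of the marked TFEB matches has the form CA[C/T][G/A]TG on either strand. The palindrome CACGTG, read alike on both strands and contained in CANNTG, was found in 0 of the 9 promoters (250 bases before to 50 after each start), and in 7.26% of all 35116 promoters in the table. Its longer form TCACGTGA was found in 0 of the 9 and in 0.980% of all. CANNTG was found in 4 of the 9, from MITF, TFEB and TFEC, and in 68.7% of all. TGANTCA, which covers the AP-1 site and also reads alike on both strands, was found in 1 of the 9 and in 7.71% of all. That match begins 42 bases before the TFE3 start, and is shown in capitals with 10 bases on each side (chrX:49043383-49043409, GRCh38.p14, minus strand). These bases are in an exon of another annotated TFE3 transcript.
TFE3 promoter: gggcgggggaTGACTCAcagcccatcc

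These matches describe letters in a short window beside each start and are not binding sites. The TFE3 summit lay 3.65 kb and the nearest TFEB pair 3.18 and 3.07 kb inside their intervals. All are farther from the interval's end than these promoter windows reach. These distances are from interval ends given to about 1 kb, not from a transcription start. The third TFEB start lies 1.21 kb inside the gene from the first.

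Just outside the windows, the summits nearest to an edge were the replicate 8 summit 12.2 kb beyond the 5′ edge of TFEB, at 41726176 with a score of 7.92, and the replicate 9 summit 12.9 kb beyond the 5′ edge of MITF. The former had no replicate 9 summit within 25.2 kb. On the 3′ side of TFEB both libraries listed a strong summit 92.6 kb beyond the window, at 41549379 with a score of 33.6 in replicate 8 and at 41549365 with 49.7 in replicate 9. Just inside the 200 bp limit stood the TFEB pair 152 bp apart, and just outside it the pair 204 bp apart.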

How the data were processed

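Binding of HA-PSF-TFE3 was measured by ChIP-seq in 2 libraries, with 1 input library as background. Per the labels and the study's methods, the authors aligned the reads, set duplicates aside and ran MACS2 on each ChIP library by itself, with the input as control. The deposited values are 1 summit per peak with a −log10 q-value as score. The stated q cutoff of 0.05 equals a score of 1.30, and the lowest scores were 1.37 and 1.33. The study's text also names a p-value cutoff and a minimum fold enrichment, and which of these the lists had passed was not tested. The version of the caller is not given in the sources used here.

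The labels name hg19, and the study's methods name hg38 as well. Beyond the ends of hg38 chromosomes lay 364 summits of replicate 8 and 262 of replicate 9, so hg19 was used. No sequence or annotation of hg19 was used here and no coordinates were converted, so exons, introns and motifs at summits were not analysed. The windows and the gene intervals inside them are given to about 1 kb. Positions are counted from 1.

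Summits were shared if one of the other list lay within 200 bp. Whole-list density was taken over 2968 Mb, from the first to the last summit of each chromosome. The named summits are all those in the windows and the first outside each edge. The members, windows and searches were chosen with earlier results of these data known, and the stretches of window length, the TGANTCA and CANNTG searches and the analysis without TFEB were added after the values were seen. Promoter sequences are from RefSeq (GRCh38.p14), and bases in annotated exons of the gene were left out of the 250-base stretches shown. Distance, window and merging functions were tested on simulated lists. No conditions could be tested against each other with a single group, and the lists themselves hold no read counts. Scores are not normalised between libraries, so ranks within a list were compared. Values were computed with pandas 2.3.3 and numpy 2.4.6 under Python 3.11.15, intervals with scipy 1.17.1 and plots with matplotlib 3.10.9.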

Additional observations from a re-analysis of the deposited data

How the results depend on the processing

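The number of summits in the windows (mean 8) was 8 without flanks, with wider windows and with summits closer than 500 bp joined into 1, 7 and 4 with minimum scores of 5 and 10, and 3 without the TFEB window. Each library alone gave 4 or 12. The density relative to the whole list (mean 1.21, and 0.844 to 1.58 for each library alone) moved to 0.617 when the list was counted over only the 100 kb bins that hold a summit, and to 0.461 without TFEB, an analysis added after the data were seen. The median percentile of 52.2 (51.0 to 53.5 for each library alone) fell to 40.5 with a minimum score of 5 and to 18.0 with a minimum score of 10, since raising the minimum removes the lower ranks of the list. The shared shares were 0% for replicate 8 and 0% for replicate 9 within 50 bp, and 33.3% and 100% within 500 bp, as follows from the distance allowed. They were 40% and 66.7% with a minimum score of 10, and 22.2% and 50% when the replicate 8 list was shortened to the length of the replicate 9 list. The share over the whole lists was computed only at 200 bp on the full lists. The shares under other settings therefore have no background beside them and do not show whether the windows stand apart. Of 40 counts for single genes under other settings, 36 stayed within 1.5 times and 4 fell, all with a minimum score of 10. These settings only take summits away, so windows without a summit could only stay at 0, and they are among the 36. The 4 that fell were all in replicate 8: MITF from 3 to 1, TFEB from 6 to 3, TFE3 from 1 to 0 and TFEC from 2 to 1. Leaving out a library gives no value for a share that needs both. No paired analysis was possible because only 1 group has summit lists. Counts this small limit any reading of a site found in 1 library.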
